A study of Mus musculus with 10 samples.

Results

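Genes that mark the epithelium of the pancreatic duct were examined in islets of diabetic db/db mice and lean db/+ mice. The set was fixed by gene name as Spp1, Car2, Krt7, Krt8, Krt18, Krt19, Sox9, Cftr and Muc1, matched to the gene symbols of the array's own table or to older names. All 9 genes were on the array, out of 19861 named genes, and they were read by 11 of 23512 probes. Spp1 and Krt7 had 2 probes each. Of the 9 genes, 8 had at least 3 values in each group and were tested. Krt8 had 1 value in each group and was not tested.

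Islets of 5 db/db mice and 5 db/+ mice were profiled at 9 weeks of age, and the strain background was C57BLKS/J throughout. Both copies of the leptin receptor gene carry the db mutation in db/db mice, which become obese and insulin resistant, and db/+ mice carry 1 copy. The labels describe db/db mice of this age as severely hyperglycaemic, with insulin lower than at an earlier age, and db/+ mice as lean controls. Each array held the islet RNA of 1 biological replicate in the Cy5 dye and the same kind of control reference in Cy3, labelled as db/+ islet RNA of 9 weeks, so that values are log2 ratios of Cy5 to Cy3 on which 1 unit is a 2-fold difference. The db allele acts in every tissue of the mouse, and an islet preparation holds several cell types. In such bulk samples, fewer cells of a type and less RNA per cell cannot be told apart. The p-values measure the spread between these 10 samples, and with 5 arrays against 5 the exact permutation test cannot give a p below 0.00794.

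The pancreatic duct is a simple epithelium that carries digestive enzymes to the gut and adds a fluid rich in bicarbonate. Its cells are held by keratin filaments, lined by mucins on the lumen side and fed by ion channels, transporters and carbonic anhydrase. Isolated islets often carry fragments of duct and acinar tissue, and several duct genes are also active in other cells of the islet preparation. Osteopontin is made by macrophages, carbonic anhydrase 2 by red cells, and keratins 8 and 18 by endocrine and acinar cells.

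Spp1, Car2 and Muc1 were higher in db/db islets (limma adjusted p under 0.05). The other 5 tested members, Krt7, Krt18, Krt19, Sox9 and Cftr, did not pass, and 0 of the 8 were lower. At an unadjusted p under 0.05, 6 were higher and 0 lower. Over all 19567 genes tested, 17.1% were called higher and 18.1% lower, together 35.2%. The members were chosen by name with results of these data known, and 3 of 8 is a count over few genes. The median log2 difference of the 8 members was 0.50, and that of all genes was -0.02. Spp1 was the 1 member with no overlap between the groups, and 12.9% of the 18636 genes with 10 values were likewise higher on every db/db array.

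In its median over these genes, 1 db/+ array stood apart from its group. The median log2 ratio of db/+ replicate 1 over the members was 0.19, and those of the other db/+ arrays lay between -0.17 and -0.13. That array was the highest, or tied for highest, for 5 of the 8 members, against 37.35% of all genes. This and the counts that follow are over few genes. In the db/db group, replicate 2 was the highest or tied for 5 of the 8 members, against 34.06% of all genes, and replicate 3 was the lowest or tied for 4, against 28.76% of all genes. The db/db medians over the members were 0.57, 0.80, 0.13, 0.49 and 0.23 for replicates 1 to 5. Values without these arrays are given beside the members whose calls changed without them.

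The 250 bases before the RefSeq gene start (build GRCm38.p6) were found for 6 of the 9 members, namely Spp1, Muc1, Krt7, Krt8, Krt18 and Cftr. Those of Spp1 and Muc1, which were called higher, and of Krt18, which was not, are shown to compare their letters, with capitals marking the TATA box (TATAAA) and the core read by SOX factors (AACAAT or ACAAAG), searched on both strands together with the AP-1 site (TGANTCA). The sequences run 5′ to 3′ on the plus strand.
Spp1, chr5:104434861-104435110: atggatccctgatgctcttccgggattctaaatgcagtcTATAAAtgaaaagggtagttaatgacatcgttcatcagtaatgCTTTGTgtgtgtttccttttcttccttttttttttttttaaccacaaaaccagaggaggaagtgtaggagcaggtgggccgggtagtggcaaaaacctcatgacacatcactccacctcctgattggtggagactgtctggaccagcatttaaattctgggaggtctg
Muc1, chr3:89228806-89229055: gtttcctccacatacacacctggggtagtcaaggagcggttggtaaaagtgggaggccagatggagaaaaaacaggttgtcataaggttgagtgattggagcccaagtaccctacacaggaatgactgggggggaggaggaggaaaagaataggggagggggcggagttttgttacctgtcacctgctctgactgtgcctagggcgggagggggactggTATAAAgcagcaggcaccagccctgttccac
Krt18, chr15:102027966-102028215: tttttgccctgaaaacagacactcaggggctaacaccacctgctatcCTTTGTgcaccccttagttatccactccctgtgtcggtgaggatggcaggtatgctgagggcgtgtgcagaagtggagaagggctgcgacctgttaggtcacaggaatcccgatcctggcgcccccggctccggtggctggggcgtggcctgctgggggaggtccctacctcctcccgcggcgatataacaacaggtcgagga
The window of Spp1 held TATAAA, with its first base 211 bases before the start, and CTTTGT, the other strand of ACAAAG, at 168 bases. In Muc1, TATAAA began 31 bases before the start. The window of Krt18 held CTTTGT at 203 bases and no TATAAA. None of the 3 windows held TGANTCA. In 32851 promoter windows of this length TATAAA was found in 12.37%, TGANTCA in 6.749% and either SOX core in 24.04%, so such matches are common and describe only these letters.

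Spp1 encodes osteopontin, a secreted phosphoprotein that duct cells release and that binds integrins and CD44. It was higher in db/db islets on both of its probes. On the brighter probe the log2 ratios were 0.90, 1.56, 1.18, 1.22 and 1.25 in db/db replicates 1 to 5, against 0.51, -0.16, -0.12, 0.41 and -0.24 in db/+ replicates 1 to 5. The lowest db/db array, replicate 1, was still above the highest db/+ array, also replicate 1. The difference was 1.14 ± 0.18 SE, or 2.21-fold (limma adjusted p = 0.000859; exact permutation p = 0.00794, the smallest this design allows). With quantile normalization it was 0.75 (adjusted p = 0.0756), which ends the call. The SD of the log2 ratios over all probes was 0.48 to 0.54 on db/db arrays and 0.19 to 0.31 on db/+ arrays. Quantile normalization gives all arrays the same spread, so here and below it can narrow db/db differences. A call lost with it cannot be told apart from that effect. On the dimmer probe the log2 ratios were 1.44, 2.04, 1.51, 1.78 and 1.50 in db/db islets, against 0.94, -0.18, 0.01, 0.21 and -0.23 in db/+ islets, again with no overlap. That probe gave 1.50 ± 0.22 SE, or 2.83-fold (limma adjusted p = 0.000749 over every probe tested), and its highest db/+ value was on replicate 1.

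The intensities behind these ratios differed between the Spp1 probes. On the dimmer probe, Cy5 was 13.49, 20.40, 15.37, 18.31 and 16.67 units in db/db islets and 11.25, 5.24, 5.32, 5.43 and 4.93 units in db/+ islets. The Cy3 reference of that probe ran from 4.96 to 5.91 units on db/db arrays and from 4.69 to 5.93 units on db/+ arrays, so the reference was alike while the islet signal was separated. On the brighter probe, Cy5 averaged 19.7 ± 1.22 units in db/db islets and 14.3 ± 1.49 units in db/+ islets, but Cy3 averaged 8.55 ± 1.62 units on db/db arrays and 13.6 ± 2.05 units on db/+ arrays (SD, n = 5 each). Its Cy3 log2 difference was -0.70 ± 0.15 SE (limma unadjusted p = 0.000839, adjusted p = 0.92), and 0.0173% of all probes passed in Cy3. Cy5 alone was quantile normalized between arrays, here and below. After that step the brighter probe's Cy5 differed by 0.21 (adjusted p = 0.224), which ends the call. Before it, that Cy5 ran from 18.07 to 21.34 units on db/db arrays and from 12.14 to 15.82 units on db/+ arrays, with no overlap. The dimmer probe's Cy5 alone differed by 1.40 (adjusted p = 0.000799 over every probe). On db/db arrays the Cy5 of either probe stood at percentile 98.67 or above of its array, near the top of the range, so the sizes of these folds are uncertain.

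Some markers of macrophages, which also make osteopontin, were higher in db/db islets too. Of 10 macrophage markers tested, 6 were higher in db/db islets, 0 were lower and 4 were not called, with the same counts at an unadjusted p under 0.05. Their summed Cy5 ran from 14.8 to 19.97 units on db/db arrays and from 8.48 to 12.55 units on db/+ arrays, with none of the markers listed at 0. The 19.97 units were on db/db replicate 1, where the brighter Spp1 probe had its lowest db/db log2 ratio, 0.90. Its Cy5 there was 20.26 units and its Cy3 10.89 units, the highest Cy3 of the db/db arrays. The 12.55 units were on db/+ replicate 2, where that probe had a log2 ratio of -0.16. Single arrays cannot show whether these markers follow Spp1 within a group. C1qa, a subunit of complement C1q made by macrophages, was higher by 0.90 ± 0.16 SE (limma adjusted p = 0.00167), and Mpeg1, a macrophage perforin, by 0.80 ± 0.10 SE (adjusted p = 0.000281). With quantile normalization neither passed, at 0.60 for C1qa (adjusted p = 0.0623) and 0.37 for Mpeg1 (adjusted p = 0.229). Most of the summed Cy5 came from C1qa, which averaged 14.2 units in db/db islets and 8.05 units in db/+ islets. The 4 markers not called were Cd68 at -0.10 (limma adjusted p = 0.199), Adgre1 at 0.07 (adjusted p = 0.661), C1qb at 0.04 (adjusted p = 0.801) and Mrc1 at 0.215 (adjusted p = 0.268). With the mean of the macrophage markers as a covariate, the difference of Spp1 was 1.09 (adjusted p = 0.0691), so its size changed little and its call was lost. These markers themselves differ between the groups, so a fit with this covariate, here and below, cannot separate macrophages from genotype. Over all genes it lowered the calls from 3349 higher and 3546 lower to 1385 and 1163. The part of macrophages in the Spp1 result and in those below was not tested.

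**Figure D1:**
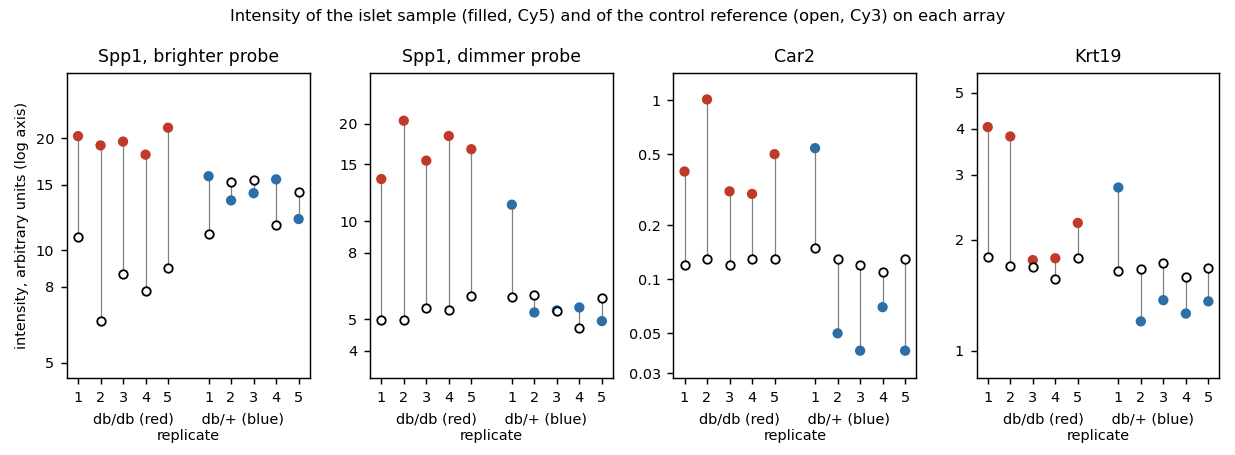
Intensity in arbitrary units on a log axis for each array, with the islet sample (Cy5) as filled points, db/db in red and db/+ in blue, and the Cy3 reference as open points. On the dimmer Spp1 probe the reference stays between 4.69 and 5.93 units while db/db islets lie at 13.49 to 20.40 units. For Car2 and Krt19, db/+ replicate 1 lies apart from the other db/+ arrays.

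Muc1 encodes a transmembrane mucin of the luminal surface of duct cells. It was higher in db/db islets. Its log2 ratios were 0.77, 1.09, 0.20, 0.39 and 0.75 in db/db islets, against 0.25, -0.20, -0.42, -0.25 and -0.15 in db/+ islets. Of the 5 db/db arrays, 4 lay above every db/+ array, and replicate 3 fell below db/+ replicate 1. The difference was 0.80 ± 0.18 SE, or 1.74-fold (limma adjusted p = 0.0069; exact permutation p = 0.0159), and without db/+ replicate 1 it was 0.90 (adjusted p = 0.00423). Cy5 averaged 1.13 ± 0.21 units in db/db islets and 0.65 ± 0.18 units in db/+ islets (SD, n = 5 each), with Cy3 at 0.716 units on db/db arrays and 0.708 units on db/+ arrays. With the macrophage covariate, which itself differs between the groups, the difference was 0.47 (adjusted p = 0.377) and did not pass.

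Car2 encodes carbonic anhydrase 2, which supplies bicarbonate for duct secretion. It had the widest spread in the set. The log2 ratios were 1.74, 2.96, 1.37, 1.21 and 1.94 in db/db islets, against 1.85, -1.38, -1.58, -0.65 and -1.70 in db/+ islets. All 5 db/db arrays lay above db/+ replicates 2 to 5, but db/+ replicate 1 lay above 3 of the db/db arrays. The difference was 2.54 ± 0.68 SE, or 5.80-fold (limma adjusted p = 0.016; exact permutation p = 0.0317). Without db/+ replicate 1 it was 3.17 (adjusted p = 0.000354).

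The Car2 probe was dim. Its Cy5 was 0.40, 1.01, 0.31, 0.30 and 0.50 units in db/db islets and 0.54, 0.05, 0.04, 0.07 and 0.04 units in db/+ islets, around a Cy3 reference of 0.11 to 0.15 units. The mean Cy5 of all 5 db/+ arrays was 0.148 units, near the mean reference of 0.127 units, which is also db/+ islet RNA. That of db/+ replicates 2 to 5 alone was 0.05 units. The SD of the Car2 log2 ratios over the db/+ arrays, 1.48, was larger than that of 99.94% of genes. Over the db/db arrays it was 0.69, larger than that of 99.3%. Since intensities are rounded to 0.01 units, 1 step is worth 0.11 log2 units at the mean reference. Quantile normalization (adjusted p = 0.142) and the macrophage covariate (adjusted p = 0.535) end the call.

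Of 7 red cell markers, 2 were higher in db/db islets, the haemoglobin genes Hba-a1 and Hbb-b1, and 1, Ahsp, was lower. Hba-a1 differed by 1.41 ± 0.33 SE (limma adjusted p = 0.00799). With quantile normalization none of the 3 passed (adjusted p = 0.0987 for Hba-a1, 0.189 for Hbb-b1 and 0.0595 for Ahsp), and Hbb-b1 was lost on leaving out db/db replicate 3 or 4 or db/+ replicate 2, 3, 4 or 5 (adjusted p = 0.0503 to 0.0763). The summed Cy5 of the red cell markers ran from 10.99 to 28.09 units in db/db islets and from 3.24 to 11.59 units in db/+ islets. In db/db islets the lowest sum, 10.99 units, was on replicate 2, where Car2 was highest. In db/+ islets the highest sum was on replicate 1, where Car2 was also highest. The part of red cells in the Car2 result was not tested.

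Cftr encodes the apical chloride and bicarbonate channel of duct cells. Its log2 ratios were 0.38, 0.51, 0.00, 0.64 and 0.00 in db/db islets, against 0.14, -0.15, 0.17, 0.29 and 0.00 in db/+ islets, and the groups overlapped. The difference was 0.22 ± 0.14 SE (limma adjusted p = 0.278). At its mean reference of 0.089 units, 1 rounding step is worth 0.15 log2 units, so Cftr was read in a few steps only.

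**Figure D2:**
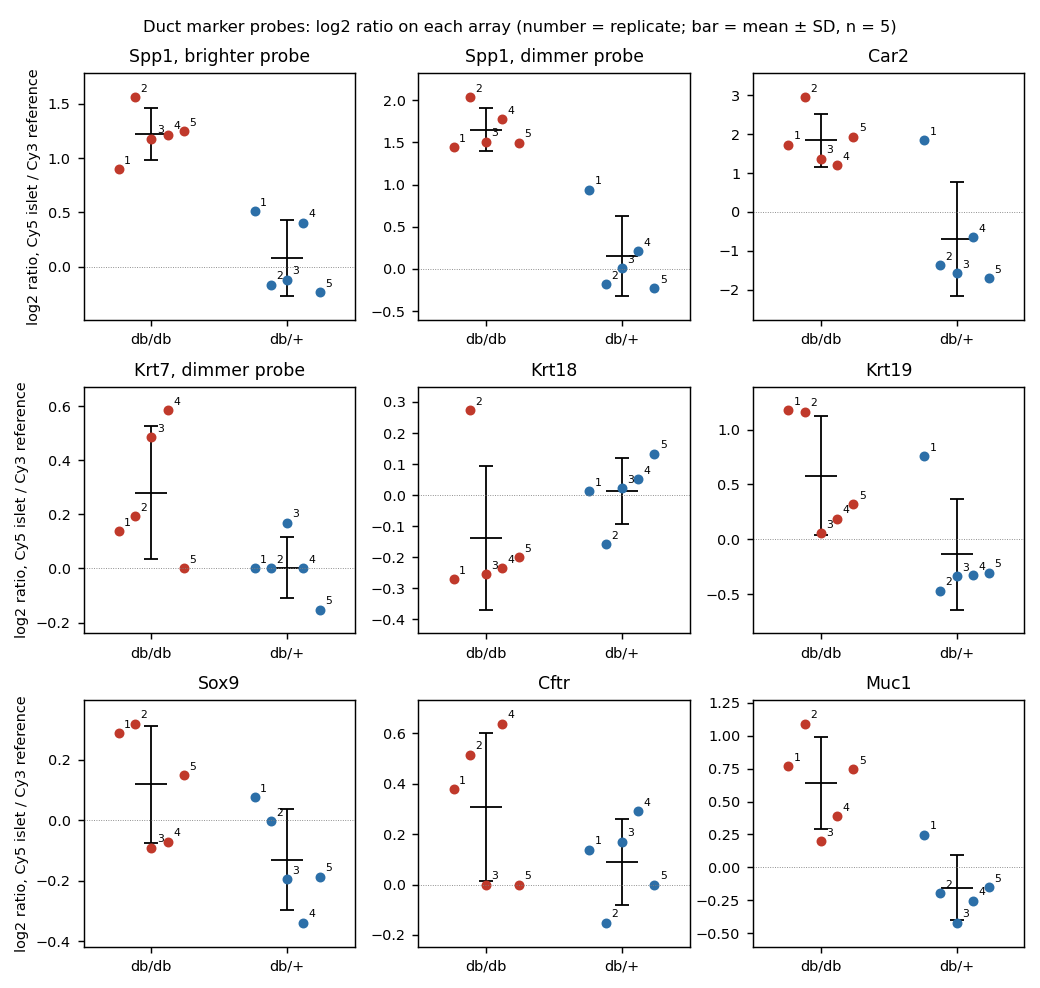
Log2 ratio of the islet sample to the reference for each tested probe of the duct markers, with db/db left of db/+ and the replicate number beside each point, and the bar giving mean ± SD (n = 5). Both Spp1 probes separate the groups on all arrays, while Car2 and Krt19 overlap through db/+ replicate 1.

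Keratins 7, 8, 18 and 19 form the intermediate filaments of simple epithelia, and keratins 7 and 19 are used to identify duct cells. Krt19 had log2 ratios of 1.17, 1.16, 0.06, 0.19 and 0.32 in db/db islets, against 0.76, -0.47, -0.34, -0.33 and -0.30 in db/+ islets. Replicates 1 and 2 of db/db lay well above the other 3, and db/+ replicate 1 lay above those 3. The difference was 0.72 ± 0.31 SE (limma adjusted p = 0.102; exact permutation p = 0.0873) and did not pass. All 5 db/db arrays lay above db/+ replicates 2 to 5. Without db/+ replicate 1 the difference was 0.94 (adjusted p = 0.0221), which passes, and with the macrophage covariate it was 0.03 (adjusted p = 1.0).

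Krt18 had log2 ratios of -0.27, 0.27, -0.26, -0.24 and -0.20 in db/db islets, against 0.01, -0.16, 0.02, 0.05 and 0.13 in db/+ islets. The difference was -0.15 ± 0.11 SE (limma adjusted p = 0.32). Of the 5 db/db arrays, 4 lay below all db/+ arrays and replicate 2 lay above all of them. Without db/db replicate 2 the difference was -0.25 (adjusted p = 0.00912), which passes as lower. The summed Cy5 of 5 acinar markers was 19.22 units on db/db replicate 2 and from 7.92 to 11.27 units on the other db/db arrays, against 17.79 to 29.09 units on db/+ arrays. With the mean of the acinar markers as a covariate, the Krt18 difference was 0.16 (adjusted p = 0.256).

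Krt7 was tested on its dimmer probe, which gave 0.28 ± 0.11 SE (limma adjusted p = 0.0919). Its log2 ratios were 0.14, 0.19, 0.49, 0.58 and 0.00 in db/db islets, against 0.00, 0.00, 0.17, 0.00 and -0.15 in db/+ islets, with replicates 2, 3 and 4 of db/db the highest. At a mean reference of 0.089 units, 1 rounding step is worth 0.15 log2 units, and without db/db replicate 5 the probe passed (adjusted p = 0.0379). The brighter Krt7 probe had values on db/db replicates 2 and 3 only, with log2 ratios of 0.22 and 0.18, and none on db/+ arrays. Krt8 had values on replicate 5 of each group, with a log2 ratio of -0.04 in db/db islets and 0.17 in db/+ islets. The Cy5 of these blank-prone probes was 14.63 to 19.62 units where given, and 50.539% of the values of the 241 probes with a mean reference of 15 units or more were blank, against 1.753% over all probes. Whether Krt8 differed is therefore not shown.

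Sox9 encodes the transcription factor that keeps duct and progenitor identity in the pancreas. Its log2 ratios were 0.29, 0.32, -0.09, -0.07 and 0.15 in db/db islets, against 0.08, -0.00, -0.20, -0.34 and -0.19 in db/+ islets, and the groups overlapped. The difference was 0.25 ± 0.11 SE (limma adjusted p = 0.106). Its Cy3 reference differed in the same direction, by 0.24 (limma unadjusted p = 0.0374, adjusted p = 0.947), and its Cy5 alone differed by 0.51 (adjusted p = 0.0444), which passes.

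In the authors' deposited table, which holds a p-value for each probe and array comparing both dyes, Car2 was under 0.01 on 5 db/db arrays and on 4 db/+ arrays. In the authors' deposited table the dimmer Spp1 probe was under 0.01 on 5 db/db arrays and 1 db/+ array, and the brighter one on 3 db/db arrays and 0 db/+ arrays. In the authors' deposited table Muc1 was under 0.01 on 3 db/db arrays and 0 db/+ arrays, Cftr on 2 and 0, Krt19 on 2 and 2, and Krt7, Krt8, Krt18 and Sox9 on none. These p-values set islet RNA against reference RNA on one array and do not compare the groups.

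For each member the 2 genes whose log2 ratios were most like its own over the 10 arrays were found among 14874 genes, as a description in which all points share the group difference and the common reference. Car2 was most like Wfdc2, which encodes a whey acidic protein of epithelia (Pearson r = 0.98), and S100a14 (0.977). Krt19 was most like Hs3st1 (0.979) and Anxa13 (0.965), and Krt18 most like Prom2 (0.931) and Rapgef1 (0.919). Spp1 was most like Arsa (0.977) and Prdx1 (0.974), Muc1 like Stub1 (0.984) and Il7 (0.983), and Sox9 like Sox12 (0.989) and Znhit3 (0.988). The dim Krt7 probe was most like Eif4g1 (0.96) and Erh (0.944), and Cftr most like Csn1s2a (0.904) and St3gal4 (0.884).

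Other genes of duct function were taken from a list of 68 genes in 7 roles, drawn up by function with earlier results of these data known. All 68 were tested, and 28 were higher (41.18%), 11 lower (16.18%) and 29 not called, against 17.1% higher and 18.1% lower over all genes. The median log2 difference of the list was 0.22. Of the 67 with 10 values, 16 lay above and 7 below on all arrays, where 12.9% and 13.2% of all genes did. The db/+ replicate 1 was highest or tied among db/+ arrays for 33 of the 67, and without it 28 were higher and 10 lower. Of the companions named below, Muc4 had a further probe that was called the same way, while further probes of Glis3, Hes1, Prom1, Dsp, Plec, Cd44 and Itgb5 were tested and not called.

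Of 14 genes of ion and fluid transport, 8 were higher and 0 lower (1 lower at an unadjusted p under 0.05), with a median of 0.50. Atp1b1, a subunit of the sodium pump, was higher by 1.52 ± 0.04 SE, or 2.87-fold (limma adjusted p = 8.898e-08). Its log2 ratios ran from 1.47 to 1.53 in db/db islets, against -0.11 to 0.05 in db/+ islets. Kcne3, a potassium channel subunit, was higher by 2.11 ± 0.13 SE (adjusted p = 3.902e-06). Slc12a2, the cotransporter that loads chloride into secreting cells, was higher by 1.24 ± 0.12 SE (adjusted p = 5.514e-05), and Ano1, a calcium-gated chloride channel, by 1.25 ± 0.20 SE (adjusted p = 0.00115). These 4 genes separated the groups on all arrays, and the sodium pump and these channels also serve endocrine and other epithelial cells. Ano1 did not pass with quantile normalization (0.81, adjusted p = 0.0635) or with the macrophage covariate (0.89, adjusted p = 0.144).

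Among 10 duct transcription factors, 3 were higher and 3 lower, and without db/+ replicate 1 the counts were 2 and 2. Elf3, an epithelial ETS factor, was lower by 1.81-fold (log2 difference -0.85 ± 0.08 SE, limma adjusted p = 4.705e-05), with log2 ratios of -0.96 to -0.76 in db/db islets, against -0.30 to 0.15 in db/+ islets. Glis3, a zinc finger factor needed for duct cilia and beta cells, was lower by 1.31-fold (adjusted p = 0.00361). Hes1, a target of Notch signalling, was higher by 1.52-fold (adjusted p = 0.00869), and Ehf, another ETS factor, by 1.44-fold (adjusted p = 0.0146) on a dim probe. With quantile normalization Glis3 (-0.14, adjusted p = 0.378), Hes1 (0.29, adjusted p = 0.401) and Ehf (0.23, adjusted p = 0.404) did not pass. Hes1 was also lost with the mean of its probes (0.21, adjusted p = 0.453) and with the macrophage covariate (0.32, adjusted p = 0.445), Glis3 with the macrophage covariate (adjusted p = 0.094), and Ehf with Cy5 alone (adjusted p = 0.108).

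At the epithelial surface and junctions, 5 of 12 genes were higher and 1 lower, with a median of 0.23. Muc4, a membrane mucin, was higher by 3.06-fold (limma adjusted p = 2.425e-06), Cd24a, a surface glycoprotein, by 2.23-fold (adjusted p = 5.669e-06), and Prom1, a protein of apical membrane protrusions, by 2.09-fold (adjusted p = 4.61e-05). Muc20 was lower by 1.16-fold (adjusted p = 0.00112), a call lost with quantile normalization (adjusted p = 0.17). Among the genes of cilia and tubules, 0 of 6 were higher, also at an unadjusted p under 0.05, and 3 were lower, with a median of -0.24. Bicc1, an RNA-binding protein linked to cystic kidney disease, was lower by 1.94-fold (adjusted p = 3.624e-05) on a dim probe, Ift88, a carrier of cilium assembly, by 1.48-fold (adjusted p = 1.688e-05), and Pkd1, which encodes polycystin 1, by 1.39-fold (adjusted p = 0.000198). Pkhd1, which encodes fibrocystin, gave 0.07 ± 0.13 SE (adjusted p = 0.71).

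Of 8 keratin partners and other keratins, 3 were higher and 2 lower, with a median of -0.14. Krt20 was higher by 3.69-fold (limma adjusted p = 0.00309) at a mean reference of 0.103 units, where its Cy5 averaged 0.492 units in db/db islets and 0.094 units in db/+ islets. Plec, which encodes the linker plectin, was higher by 1.30-fold (adjusted p = 0.0176), and the desmosome genes Dsp and Pkp2 were lower by 1.35-fold (adjusted p = 0.031) and 1.17-fold (adjusted p = 0.0138). With the macrophage covariate none of these 4 genes passed (adjusted p = 0.304 for Krt20, 0.473 for Plec, 0.666 for Dsp and 0.113 for Pkp2). With the mean of their probes Plec (0.10, adjusted p = 0.442) and Dsp (-0.15, adjusted p = 0.135) did not pass, with quantile normalization Dsp (adjusted p = 0.36) and Pkp2 (adjusted p = 0.19) did not. Pkp2 was also lost with loess (adjusted p = 0.076), with Cy5 alone (adjusted p = 0.361) and with the acinar covariate (adjusted p = 0.134), as were Krt20 (adjusted p = 0.0724) and Plec (adjusted p = 0.211) with the acinar covariate. Dsp was lost on leaving out db/db replicate 1, 2 or 5 or db/+ replicate 3, 4 or 5 (adjusted p = 0.0547 to 0.0736).

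Among 10 osteopontin receptors, 4 were higher and 1 lower, with a median of 0.32. Cd44, a receptor for osteopontin and hyaluronan, was higher by 2.98 ± 0.13 SE, or 7.87-fold (limma adjusted p = 8.926e-07). Its log2 ratios ran from 2.46 to 3.18 in db/db islets, against -0.28 to 0.06 in db/+ islets. The integrin beta genes Itgb5 and Itgb3 were higher by 1.60-fold (adjusted p = 3.602e-05) and 1.31-fold (adjusted p = 0.000908), Itgb3 on a dim probe with a mean reference of 0.097 units. Itgav, the alpha chain that pairs with both, was lower by 1.48-fold (adjusted p = 0.0014). With the macrophage covariate Itgb3 (adjusted p = 0.0962) and Itgav (adjusted p = 0.15) did not pass, nor did Itgb3 with Cy5 alone (adjusted p = 0.114), and the mean of the Cd44 probes gave 1.43.

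Of 8 genes of injured or proliferating duct, 5 were higher and 1 lower, with a median of 1.14. Lgals3, which encodes galectin 3 and is also made by macrophages, was higher by 4.17-fold (limma adjusted p = 7.347e-05), and Anxa1, which encodes annexin A1, by 3.41-fold (adjusted p = 0.000215). Wfdc2 was higher by 2.88-fold (adjusted p = 0.0123) on a dim probe, with db/+ replicate 1 at a log2 ratio of 1.20. It did not pass with quantile normalization (1.22, adjusted p = 0.18) or with the macrophage covariate (0.63, adjusted p = 0.575). Mmp7, a matrix protease, was higher by 4.51 ± 0.50 SE (adjusted p = 0.000204), but its mean reference was 0.0211 units, so its fold is coarse. For the 7 genes of this role with 10 values, db/+ replicate 1 was the highest or tied db/+ array in 7, and db/db replicate 2 the highest or tied db/db array in 7.

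**Figure D3:**
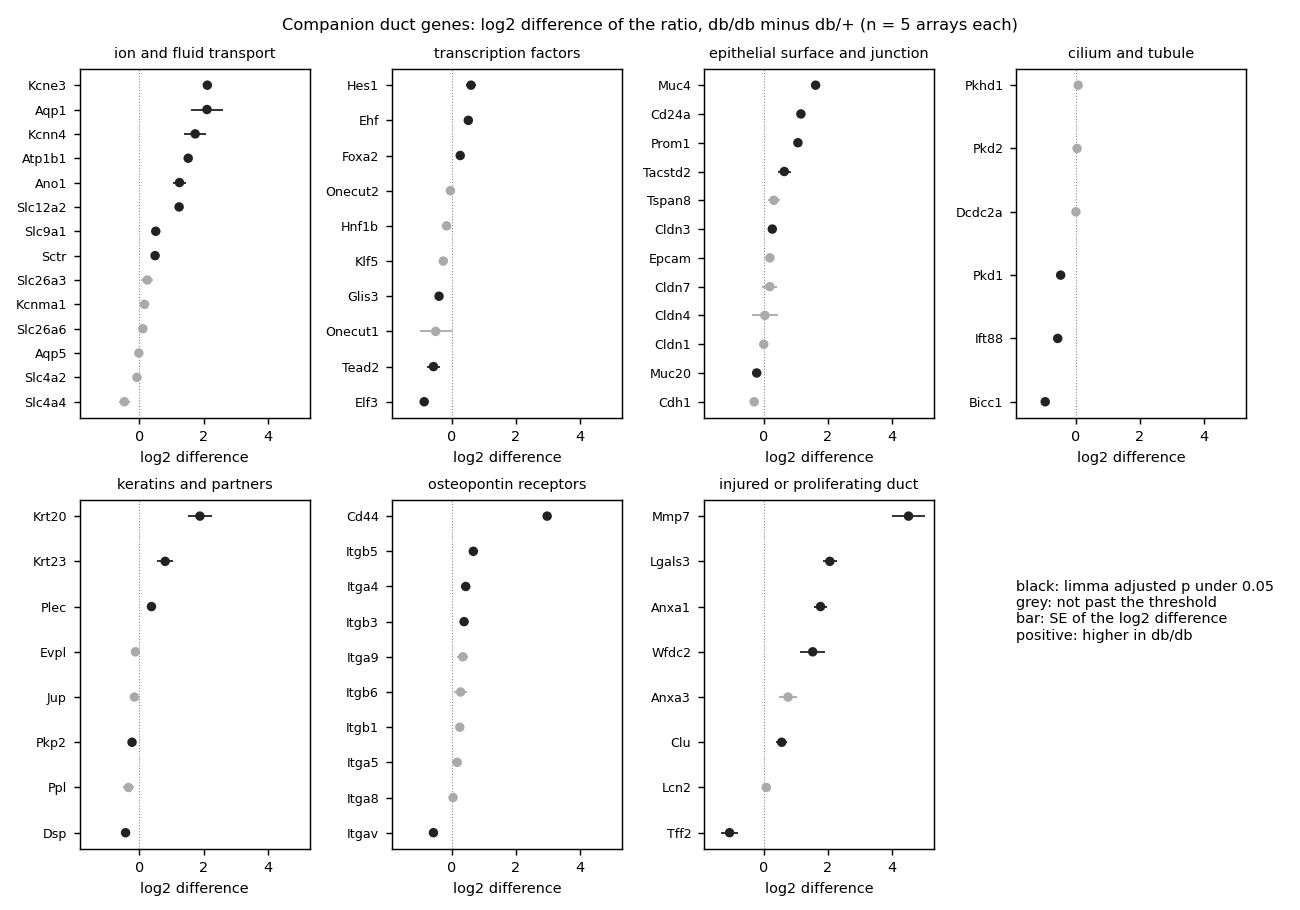
Log2 difference of the ratio, db/db minus db/+, for the 68 companion duct genes by role, with bars giving the SE and black points marking a limma adjusted p under 0.05. Ion and fluid transport has 8 higher and 0 lower genes, and cilium and tubule 0 higher and 3 lower.

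Markers of other cells of the preparation differed between the groups beside the duct genes. Of 10 markers of mesenchyme and stellate cells, 8 were higher and 0 lower, with the same counts at an unadjusted p under 0.05. Their summed Cy5 ran from 6.18 to 9.78 units on db/db arrays and from 1.96 to 4.10 units on db/+ arrays, the 4.10 on replicate 1 and the others at most 2.60. Col3a1, a fibrillar collagen, was higher by 6.55-fold (limma adjusted p = 5.421e-05) and Vim, the intermediate filament of mesenchyme, by 3.15-fold (adjusted p = 9.42e-06). The highest mesenchyme sum in each group lay on db/db replicate 2 and db/+ replicate 1, the arrays on which duct members were most often highest. Of 5 acinar markers tested, 0 were higher and 1, the ribonuclease gene Rnase1, was lower (2.56-fold, adjusted p = 0.0069). At an unadjusted p under 0.05, 4 were lower and 0 higher, and the acinar sum of db/+ replicate 1, 24.95 units, lay within the range of the db/+ arrays. Of 8 endothelial markers, 1, Plvap, was higher and 1, Flt1, lower. With quantile normalization Rnase1 (adjusted p = 0.0763), Plvap (adjusted p = 0.0811) and Flt1 (adjusted p = 0.0748) did not pass. The part of these cells in the duct results was not tested.

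Islet identity was read from 6 tested beta cell markers and 6 tested alpha cell markers, with none listed at 0. Of the beta cell markers, 0 were higher and 5 lower, with the same counts at an unadjusted p under 0.05. Of the 5, Mafa and Ucn3 were read in a few rounding steps of 0.01 units only. Mean Cy5 in db/db and db/+ islets was 0.036 and 0.044 units for Mafa, and 0.022 and 0.034 units for Ucn3. With Cy5 alone Mafa did not pass (adjusted p = 0.0594). The insulin gene Ins1 was not called (adjusted p = 0.47), at a mean Cy5 of 0.044 and 0.042 units. Ins2 was not on the array and Slc2a2 was not tested. The summed Cy5 of the tested beta cell markers ran from 8.57 to 9.71 units in db/db islets and from 15.01 to 17.25 units in db/+ islets. Kcnj11, the pore of the beta cell potassium channel, was lower by 2.07-fold (limma adjusted p = 6.011e-07). Most of the beta cell sum came from Kcnj11, at a mean of 6.796 units in db/db islets and 13.01 units in db/+ islets. Of the alpha cell markers, 2 were higher and 1 lower. The summed Cy5 of the duct markers tested ran from 31.6 to 37.9 units in db/db islets and from 26.4 to 33.1 units in db/+ islets, the 33.1 on replicate 1 and the others at most 28.3. Most of these sums came from the brighter Spp1 probe, at a mean of 19.7 units in db/db islets and 14.3 units in db/+ islets, and from Krt18, at 7.86 and 9.29 units.

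**Figure D4:**
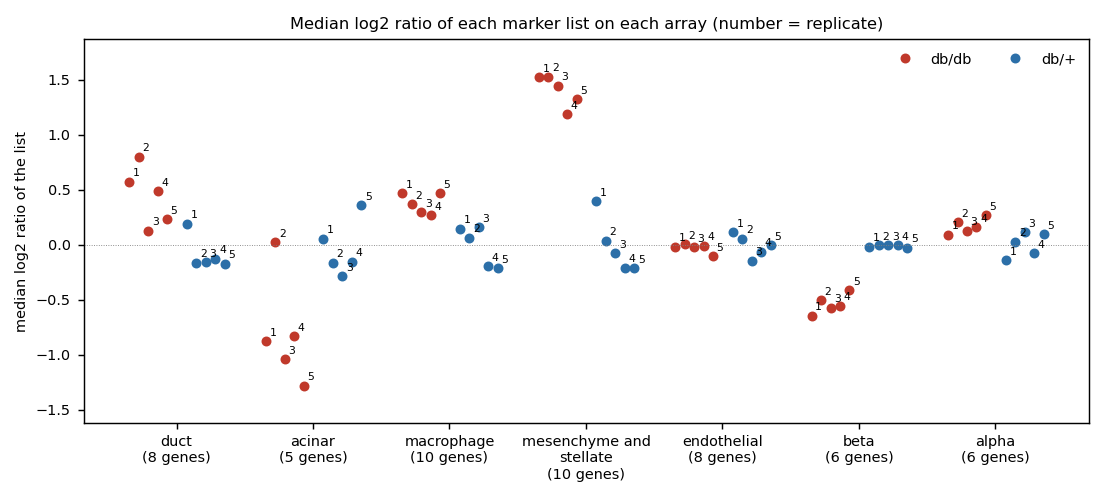
Median log2 ratio of each marker list on each array, db/db left of db/+, with the replicate number beside each point. The duct medians lie at 0.13 to 0.80 in db/db islets and -0.17 to 0.19 in db/+ islets, and the mesenchyme list lies at 1.19 to 1.53 in db/db islets, above all db/+ arrays.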

How the data were processed

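Gene expression of islets from 5 db/db and 5 db/+ mice was read on 10 arrays of 2 colours. The submitters' processing notes name Agilent Feature Extraction 8.5.1.1. Per the file headers, the deposited table holds an intensity for either dye, in arbitrary units, most of them rounded at 0.01. A p-value that sets the dyes against each other was also deposited by the authors for each probe and array. The deposited log10 ratios were checked to equal the log10 of Cy5 over Cy3 within 0.0001 for 230999 of 230999 values. How that p-value was obtained, how background and dyes were corrected, why some spots are blank, and whether the reference was pooled from these db/+ mice is not given in the sources used here. No genome build is named.

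Log10 ratios were turned into log2 with no further scaling. A probe needed 3 values per group (23138 probes), and for each gene the probe of highest mean Cy3 was fitted (19567 genes). A probe was called dim by a mean Cy3 under 0.1575 units, the median. The fit used lmFit and eBayes of limma 3.58.1 (R 4.3.3) without covariates, 2-sided, adjusted by Benjamini-Hochberg over all genes. All adjusted p-values are limma's. Single members were also given an exact permutation test, 2-sided. A fold is the antilog of the log2 difference, turned over for genes that were lower, and SE is limma's moderated standard error. The Cy3 channel, quantile normalized, was tested in the same way, and 4 of 23138 probes passed (1083 at an unadjusted p under 0.05). Cy5 alone was likewise quantile normalized between arrays before its fit. The number of arrays, which held 22657 to 23365 values each, limits the precision. The fit was tested on simulated data. The members, lists and tests were chosen with earlier results of these data known. Named genes were taken from all members, the 4 genes with the lowest adjusted p in every list, and the 2 genes most like each member. Fewer than 4 are named for each list of markers of other cells, apart from the macrophage and beta cell lists, and 2 of those marker genes are not reported by name here. Macrophage and beta cell markers named because they were not called or not tested were not searched for outlying arrays. Promoters and the names of probes come from RefSeq (GRCm38.p6), by symbol for 18956 probes, accession for 623 and synonym for 1775. The alternatives are given in the closing section. Python 3.11.15, pandas 2.3.3 and matplotlib 3.10.9 were used for tables and figures.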

Additional observations from a re-analysis of the deposited data

Results flagged for a closer look

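Among the members and the named genes of the lists, arrays far from the rest of their group were found in the following cases, where chance alone would give about 1 in 20 groups (10 were found in 126 groups). Krt18 stood at 0.27 on db/db replicate 2, above the other db/db arrays. Krt19 stood at 0.76, Wfdc2 at 1.20 and Anxa1 at 0.72 on db/+ replicate 1, all above the other db/+ arrays, and Plec at -0.09 was apart on the same array. Ift88 stood at -0.67 on db/db replicate 2, below the other db/db arrays. Loxl4, an alpha cell marker, stood at 0.32 on db/db replicate 2 and at -0.42 on db/+ replicate 4. The beta cell marker Ucn3 stood at -0.42 on db/db replicate 5, and the alpha cell marker Irx1 at 0.00 on db/db replicate 1. Loxl4, Ucn3 and Irx1 have mean references of 0.048 units or less, where a rounding step is large.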

How the results depend on the processing

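The count of duct markers higher in db/db islets, 3 of 8, was 3 with loess within arrays, with trended or weighted variance, with only genes of 10 values, with every probe fitted, with the mean of probes and with the acinar covariate, each time for Spp1, Car2 and Muc1. These 3 were also under 0.05 by the exact permutation test, whose p is not adjusted over genes, where 6 were higher at an unadjusted limma p under 0.05. The count was also 3 with Cy5 alone (Car2, Sox9 and Muc1) and without the dimmer probes (Spp1, Krt19 and Muc1, with 5 members tested), and 2 at an adjusted p under 0.01. It was 1 with quantile normalization (Muc1, adjusted p = 0.0478) and 0 with the macrophage covariate. Leaving out single arrays gave 3 to 4 higher and 0 to 1 lower duct markers. Of the companion genes, 28 were higher and 11 lower, against 17 and 5 with quantile normalization, 13 and 7 with the macrophage covariate, 18 and 7 at an adjusted p under 0.01, and 23 to 28 and 9 to 12 when single arrays were left out. Quantile normalization also reduced the calls over all genes to 1607 higher and 1491 lower, and the macrophage covariate to 1385 and 1163, against 3349 and 3546. Quantile normalization gives the wider db/db and narrower db/+ arrays the same spread, so a call lost with it cannot be told apart from that effect. With the group means removed, same-numbered arrays of replicates 1 to 5 had correlations of 0.071, 0.053, 0.101, 0.221 and 0.0365. Replicates 3 and 4 of db/db were each most like the db/+ array of their own number, and replicates 1, 2 and 5 were not. Low correlations cannot settle whether the numbers pair the samples, and the main fit treated the arrays as unpaired. With the replicate number as a block, 6 duct markers were higher (Spp1, Car2, Krt7, Krt19, Sox9 and Muc1), with adjusted p = 0.0444, 0.0463 and 0.0121 for Krt7, Krt19 and Sox9. Directions turned for Krt18 (0.16) and Cel (0.15) with the acinar covariate, for Sox9 (-0.0823), Pkhd1 (-0.34), C1qc (-0.013) and Loxl4 (-0.0596) with the macrophage covariate, for Irx1 (0.0806) with Cy5 alone, and for Pkhd1 (-0.0078) without db/+ replicate 5. The cause was not tested. Fits without an array kept genes with at least 2 values in each group. Blank values among bright probes, rounding of dim ones and the 5 arrays per group limit what can be seen.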
